A study of Mus musculus with 4 samples.

Results

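Glutathione S-transferases join the thiol of glutathione to electrophiles, among them drug metabolites, epoxides and the aldehydes left by lipid peroxidation, and the conjugates are then exported in bile or blood. The cytosolic enzymes are dimers that fall into classes by sequence, and the alpha, mu, pi and theta classes are all made in liver, where hepatocytes hold them in large amounts. Many of their genes carry antioxidant response elements read by the transcription factor NRF2 and respond to the xenobiotic receptors CAR and PXR, and several are more abundant around the central vein or in one sex. The genes described here are 10 of the 12393 genes with a probe set of their own in the table: Gsta2, Gsta3 and Gsta4 of the alpha class, Gstm1, Gstm2, Gstm3 and Gstm6 of the mu class, Gstp1 and Gstp3 of the pi class, and Gstt1 of the theta class. They were taken by gene symbol, and all 10 were found, on 15 of 22626 probe sets.

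RNA came from the livers of 4 wild-type mice, C57/BL6 by genetic background and 1 month old, 2 of them controls and 2 starved for 24 h, with 1 array per mouse. The description field of the labels speaks instead of mice injected or not injected, and what that refers to was not settled, so the groups here are those of the titles and the treatment field. The comparison asks how starvation of this length alters liver transcripts. Each value is a log2 RMA signal, an array brightness summarised over the probes of a probe set, in which a step of 1 is a doubling. It allows a probe set to be compared between arrays but not with another probe set. Changes are starved minus control group means, each with its standard error (SE) and 95% confidence interval from limma.

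The samples held together as liver. The 9 measured hepatocyte markers averaged 14.42 to 14.58 (log2) on the 4 arrays. The labels give no sex, and the Y-linked Eif2s3y read 9.28 to 9.91 on every array. Neutrophil markers averaged 7.04 in control 2 against 5.91 to 6.18 in the remaining mice. Lcn2, S100a9 and S100a8 carried this gap, with Lcn2 at 13.49 in control 2 and 8.84 to 9.35 in the remaining mice. Ngp read 5.73 to 5.76 on all arrays, and Camp, Mpo, Elane and Ltf did not set control 2 apart either. Whether control 2 held more neutrophils was not tested. The 3' actin signal exceeded the 5' one by 2.06 on starved 1 and by 1.76 to 1.85 elsewhere. This excess is larger in degraded RNA. In whole tissue, fewer cells of a type and less RNA per cell cannot be told apart.

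Most transferase probe sets read lower in starved liver, and none passed the test. Of the 15, 12 had a negative change and 3 a positive one, with a median of -0.29 (log2), against a median of 0.0028 over all probe sets. None of the 15 had an adjusted p under 0.05 (limma, Benjamini-Hochberg over 22626 probe sets), a level reached by 13 or 0.0575% of all probe sets. At an unadjusted p under 0.05 there were 6, against 11.5% of all probe sets, of which 5 were lower and 1 higher, against 6.04% and 5.42% of all probe sets. Both starved arrays lay below both control arrays in 10 probe sets and above them in 1, and over all probe sets those shares were 20.6% and 21.3%. The share that lay below, 66.7%, was above the background, but probe sets of 1 gene share their transcript and no single gene was called. An alternative, eBayes with trend and robust, lets the expected spread follow the signal and gives unusually variable probe sets less weight in it. Under it 2 of the 15 passed, Gstm3 and Gstm6, both lower. That setting passed 59 of all 22626 probe sets, against 13 in the main fit.

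**Figure D1:**
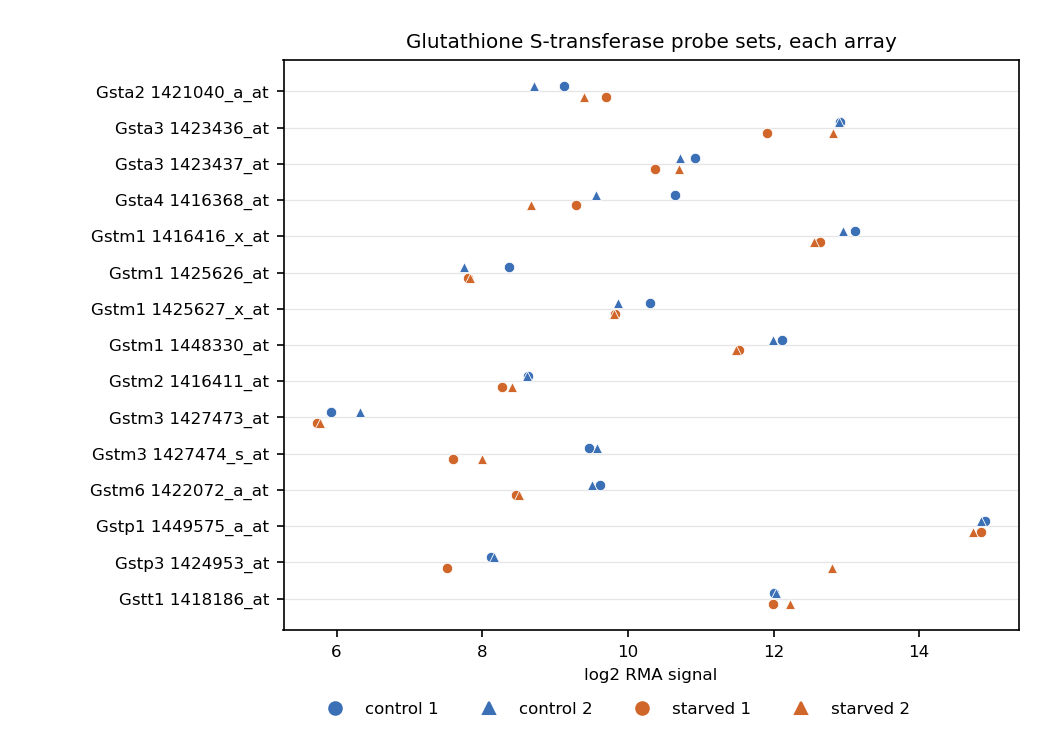
Log2 RMA signal (horizontal axis) of each of the 15 probe sets of the 10 genes on each array, controls in blue and starved in orange, circles for mouse 1 and triangles for mouse 2. Orange marks lie left of blue marks in 10 rows, and in the Gstp3 row starved 2 stands at 12.81 with the other 3 arrays between 7.52 and 8.16.

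The mu class was lower throughout, by sign. All 8 probe sets of its 4 genes had a negative change, 7 of the 8 had the starved arrays below the controls without overlap (20.6% of all probe sets), and 4 had an unadjusted p under 0.05 (6.04% of all probe sets, lower). Of the 8, 4 read the same gene, Gstm1. Averaged over these probe sets and set against the control mean, starved 1 stood at -0.65 and starved 2 at -0.59, while the controls stood at 0.060 and -0.060. The starved mice were thus alike in this average. The controls are equal and opposite there because each probe set was set against their mean, and averaging offsets gaps of opposite sign. By single probe set, the groups overlapped in Gstm1 1425626_at and lay 0.035 apart in 1425627_x_at. The widest step was 1.47, in Gstm3 1427474_s_at.

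Gstm3 had the change with the smallest p of the 15. Its probe set 1427474_s_at read 9.47 and 9.57 in the control mice and 7.60 and 7.99 in the starved mice. The starved signals lay 1.47 or more below the controls on the log2 scale, with no overlap. The group means were 9.52 ± 0.07 and 7.80 ± 0.28 (SD, n = 2 each), a 3.30-fold difference with a log2 change of -1.72 ± 0.16 (SE) and a confidence interval of -2.12 to -1.32 (adjusted p = 0.0564, limma). The _s_at ending marks probes shared by several transcripts, so related mu transcripts may contribute to it. The other Gstm3 probe set, 1427473_at, read 5.92 and 6.33 in controls and 5.73 and 5.77 in starved mice, below the array medians of 6.70 to 6.73. Its groups did not overlap either, but its log2 change of -0.37 ± 0.16 (SE) had an interval of -0.77 to 0.03, which does not meet that of the first probe set. The size of the Gstm3 difference therefore depends on the probe set, from 1.30-fold to 3.30-fold lower. The mean of both gave a log2 change of -1.05.

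Gstm6 was read by 1 probe set, 1422072_a_at, of a type shared by transcripts of the same gene. Its signals were 9.61 and 9.50 in the control mice and 8.46 and 8.51 in the starved mice. The mice of each group lay within 0.11 of each other, and 0.99 separated the groups. The log2 change was -1.07 ± 0.12 (SE), or 2.10-fold lower, with an interval of -1.36 to -0.79 (adjusted p = 0.0604, limma). The adjusted p ran from 0.042 to 0.294 for Gstm6 and from 0.0357 to 0.18 for Gstm3 probe set 1427474_s_at over the alternative settings.

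Gstm1 encodes an abundant mu subunit of mouse liver, and its 4 probe sets gave changes of one sign but of different size. Probe set 1448330_at read 12.12 and 11.99 in controls and 11.52 and 11.48 in starved mice. The starved signals lay below the controls by 0.47 or more, and the log2 change was -0.56 ± 0.12 (SE; adjusted p = 0.193, limma). Probe set 1416416_x_at, of a type that may hybridise to other sequences, read 13.11 and 12.95 against 12.63 and 12.56. Its change was -0.44 ± 0.12 (SE), again with no overlap. The remaining probe sets were 1425627_x_at, at 10.30 and 9.86 against 9.83 and 9.82, and 1425626_at, at 8.36 and 7.76 against 7.81 and 7.83. In both, control 2 lay next to the starved mice, and in 1425626_at the groups overlapped. Their changes were -0.26 and -0.24, with intervals that reached from -0.68 to 0.16 and from -0.75 to 0.28. Gstm2, another mu subunit, read 8.63 and 8.61 in controls and 8.27 and 8.40 in starved mice. Its starved mice were lower by 0.21 or more, with a log2 change of -0.28 ± 0.12 (SE) and an interval of -0.57 to 0.01.

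The mu genes lie side by side on chromosome 3 of the RefSeq mouse assembly GRCm38.p6, in the order Gstm5, Gstm7, Gstm6, Gstm3, Gstm2, Gstm1 and Gstm4. The 3 neighbours outside the set were also lower by sign. Gstm7 read 9.19 and 9.32 in controls and 8.44 and 8.25 in starved mice on its brighter probe set, a log2 change of -0.91 ± 0.13 (SE; adjusted p = 0.103, limma). Gstm5 read 9.11 on both controls and 8.44 and 8.57 in starved mice, a change of -0.61 ± 0.12 (SE), and Gstm4 had -0.29 ± 0.15 (SE). Over the whole cluster, 12 of 12 probe sets of 7 genes had a negative change, 11 of them without overlap (20.6% of all probe sets lay below), and the changes ran from -1.72 to -0.22. The mu transcripts are similar in sequence, so which of them a probe set reads is uncertain.

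**Figure D2:**
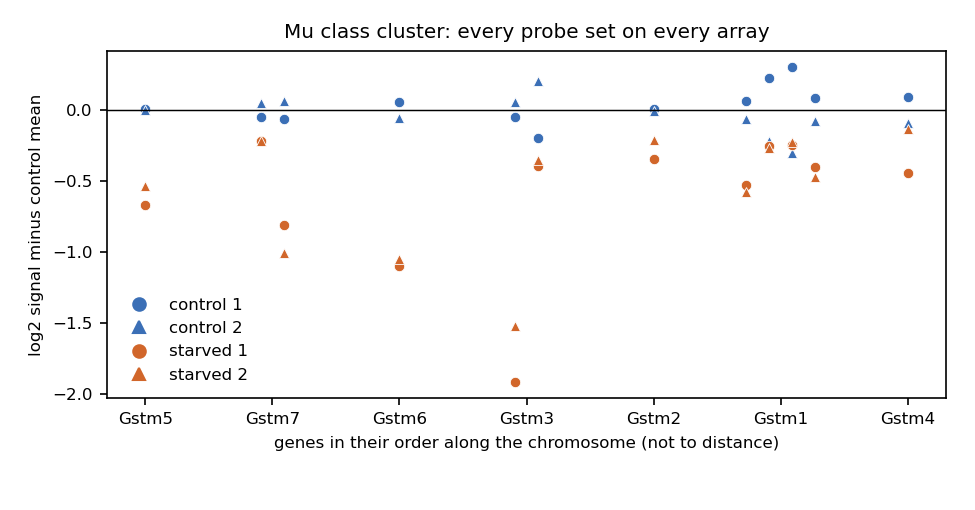
Log2 signal minus the control mean (vertical axis) for each probe set of the 7 mu genes, placed in their order along the chromosome and not to distance, controls in blue and starved in orange, circles for mouse 1 and triangles for mouse 2. Every starved mean lies below 0, the Gstm3 probe set 1427474_s_at reaches -1.92 on starved 1, and overlap with a control is seen in the column of 1 Gstm1 probe set.

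Alpha class genes did not share a direction. Gsta2, of a class that also reduces lipid hydroperoxides, read 9.12 and 8.70 in controls and 9.70 and 9.40 in starved mice. It was the 1 member whose starved mice both lay above both controls, by 0.28 or more. The means were 8.91 ± 0.29 and 9.55 ± 0.22 (SD, n = 2 each), a log2 change of 0.64 ± 0.19 (SE) with an interval of 0.18 to 1.10 (adjusted p = 0.303, limma). A further probe set, annotated to Gsta2 together with Gsta1 and Gm3776 and so not counted as a member, read 8.52 and 8.06 in controls and 8.79 and 8.49 in starved mice. There the groups overlapped, and the log2 change was 0.35 ± 0.19 (SE).

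Gsta4, the enzyme with high activity towards the peroxidation product 4-hydroxynonenal, read 10.65 and 9.57 in controls and 9.29 and 8.67 in starved mice. The starved mice were lower by 0.27 or more, but the controls differed from each other by 1.09. The log2 change was -1.13 ± 0.38 (SE), with an interval of -2.07 to -0.18 (adjusted p = 0.359, limma), and it was -0.58 without control 1 and -1.67 without control 2. Gsta3, which in mouse liver detoxifies the epoxide of aflatoxin B1, read 12.91 and 12.89 in controls and 11.92 and 12.81 in starved mice on probe set 1423436_at. On 1423437_at it read 10.93 and 10.72 against 10.38 and 10.70. Both probe sets show starved 1 low and starved 2 next to the controls, within 0.08 and 0.02 of the nearer control. The changes were -0.54 ± 0.29 and -0.29 ± 0.16 (SE), with intervals that included 0. Without starved 1, the mouse with the largest 3' to 5' actin difference, the change on 1423436_at was -0.09. The part of RNA integrity in this was not tested.

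The 2 pi class genes were unlike in how far the starved mice differed from each other. Gstp1, the main pi subunit and in mouse liver more abundant in males, read 14.90 and 14.84 in controls and 14.85 and 14.73 in starved mice. The groups overlapped, and the log2 change was -0.08 ± 0.12 (SE), with an interval of -0.37 to 0.21. These signals lie close to the highest value in the table, 15.47.

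Gstp3, a neighbour and relative of Gstp1, read 8.13 and 8.16 in the control mice, 7.52 in starved 1 and 12.81 in starved 2. The controls agreed within 0.04, and the starved mice lay on opposite sides of them. Starved 2 was 39-fold above starved 1, the largest gap between the starved mice among all 22626 probe sets, where the median gap was 0.14 (log2). Starved 2 also stood 4.65 above the highest of the other arrays, which was the first rank of all probe sets, and no other probe set had starved 2 above the rest by more than 2. The mean log2 change of 2.02 ± 1.55 (SE; interval -1.80 to 5.85, adjusted p = 0.698, limma) therefore describes neither mouse. It was 4.66 without starved 1 and -0.62 without starved 2, each from a lone starved mouse. The values belong to 1 probe set of 1 mouse, and no other Gstp3 probe set was measured.

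The probe sets closest to Gstp3 over the 4 arrays, by Euclidean distance of mean-centred log2 values and outside the transferases, were those of Id1, G0s2, Fgf21, Cyp2c39 and Abcd2. Their distances ran from 2.47 to 2.95, against a Gstp3 range of 5.29, so none followed it closely. Id1, an inhibitor of basic helix-loop-helix transcription factors and the nearest, read 7.39 and 7.90 in controls, 7.07 in starved 1 and 9.50 in starved 2, so that, as in Gstp3, starved 1 lay below both controls and starved 2 above them. Fgf21, a liver hormone of fasting, read 5.83 and 5.94 in controls, 6.31 in starved 1 and 7.98 in starved 2. G0s2, an inhibitor of the lipase Pnpla2, read 9.86 and 9.57 in controls, 10.54 in starved 1 and 12.13 in starved 2. In Fgf21 and G0s2 starved 2 was the highest array, and starved 1 lay above the controls. The same order held in Abcd2, at 5.40 and 5.75 in controls, 5.99 in starved 1 and 7.33 in starved 2. Cyp2c39 read 9.26 and 5.84 in controls, 6.94 in starved 1 and 10.81 in starved 2. Its controls thus lay far apart, with starved 1 between them.

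**Figure D3:**
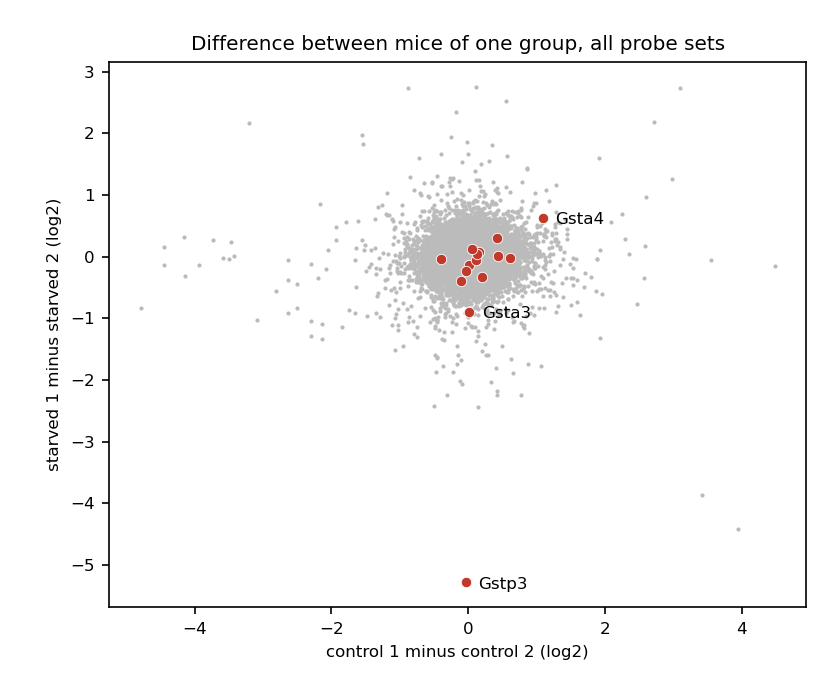
Difference between the control mice (horizontal axis) and between the starved mice (vertical axis), both in log2 units, for all 22626 probe sets in grey and the 15 transferase probe sets in red. Gstp3 sits at -0.04 and -5.29, the lowest point of the plot, and Gsta4 shows the widest gap between controls of the 15, at 1.09.

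Gstt1, the theta class enzyme that acts on small halogenated compounds, read 12.004 and 12.036 in controls and 11.99 and 12.23 in starved mice. The groups overlapped, and the log2 change was 0.09 ± 0.13 (SE), with an interval of -0.24 to 0.41, so a difference of 1 log2 unit lies outside it. The other measured theta genes read higher by sign. Gstt2 read 10.27 and 9.64 in controls and 10.89 and 11.06 in starved mice, a log2 change of 1.02 ± 0.22 (SE; adjusted p = 0.198, limma). Gstt3 read 8.48 and 8.27 against 9.48 and 8.78, a change of 0.75 ± 0.24 (SE; adjusted p = 0.338, limma), or 0.41 without starved 1 and 1.10 without starved 2. Neither passed the test, and the difference between the classes was not tested.

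**Figure D4:**
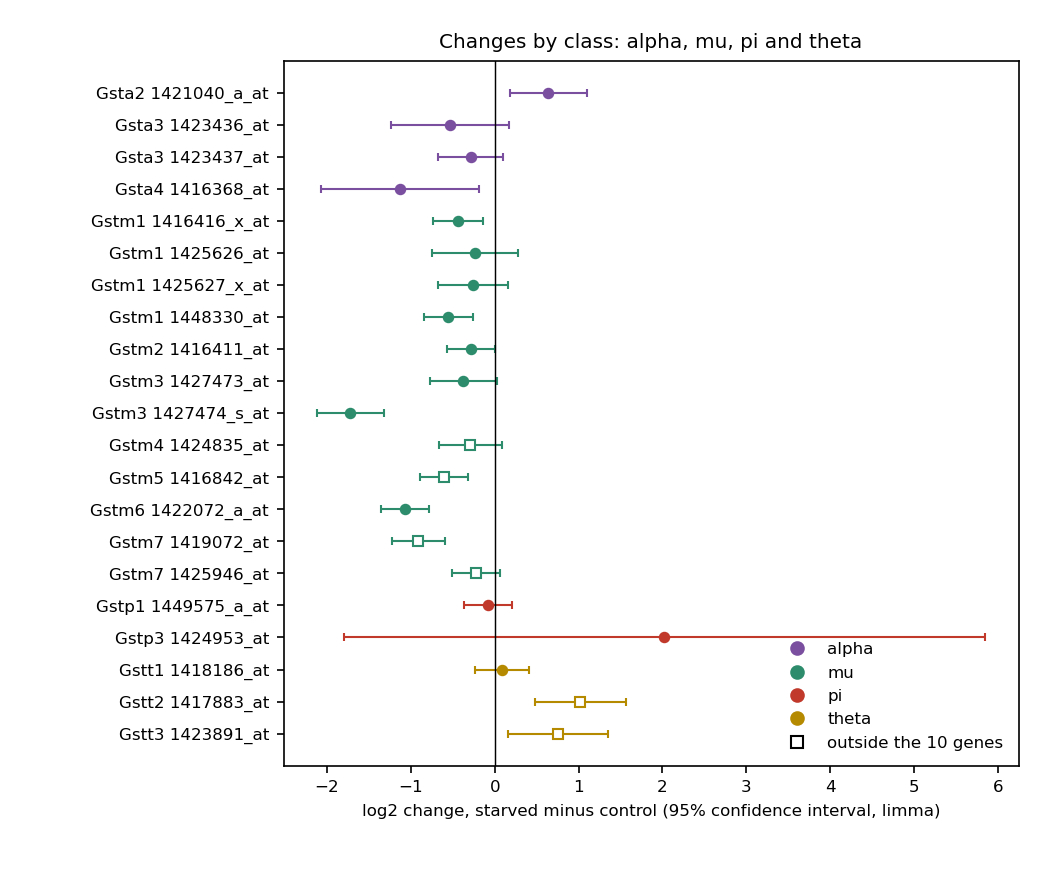
Log2 change, starved minus control (horizontal axis), with its 95% confidence interval from limma, for every alpha, mu, pi and theta probe set of a single gene. Filled circles are the 15 probe sets of the 10 genes and open squares are other genes. All mu points lie left of 0, the theta points lie right of it, and the Gstp3 interval runs from -1.80 to 5.85.

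Promoter windows from RefSeq (GRCm38.p6, 250 bases before to 50 after an annotated start) were matched for 9 of the 10 genes, in 12 windows, since some have several starts. Gsta4 had no entry. Windows were searched on both strands for the core of the antioxidant response element, TGACNNNGC, for the AP-1 site, TGACTCA, which that core can overlap, and for TATAAA. The core in this spelling was found in 1 of the 12 windows, that of Gsta3, and in 12.4% of all 32851 windows. Other spellings of the element were not searched, so a window without a match cannot be said to lack it. In Gstp1 the letters TGAGTCA are followed by gc, which differs from the searched core only in G for C. The AP-1 site was found in 1, that of Gstp1, and in 5.20% of all windows, and TATAAA in 2, those of Gsta2 and Gstm1, and in 13.6% of all windows. Shown are Gsta3 for the response element, and Gstm3 and Gstm1 as genes of the mu cluster whose starved signals were lower by mean. Gstp1 and Gstp3 are shown as pi relatives that were unlike between the starved mice. Sequences run 5' to 3' and capitals mark the matches, which begin 121 bases before the start in Gsta3, 30 in Gstm1 and 74 in Gstp1. The Gstm3 and Gstp3 windows held none of these letters.
Gsta3 promoter, GRCm38.p6 chr1:21240335-21240634, plus strand: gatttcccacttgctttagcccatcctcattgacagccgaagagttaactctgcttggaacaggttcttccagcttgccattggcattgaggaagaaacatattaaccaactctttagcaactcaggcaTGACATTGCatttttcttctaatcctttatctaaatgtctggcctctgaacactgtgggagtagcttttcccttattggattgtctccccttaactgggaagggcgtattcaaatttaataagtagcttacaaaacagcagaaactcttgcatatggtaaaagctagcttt
Gstm3 promoter, GRCm38.p6 chr3:107969125-107969424, minus strand: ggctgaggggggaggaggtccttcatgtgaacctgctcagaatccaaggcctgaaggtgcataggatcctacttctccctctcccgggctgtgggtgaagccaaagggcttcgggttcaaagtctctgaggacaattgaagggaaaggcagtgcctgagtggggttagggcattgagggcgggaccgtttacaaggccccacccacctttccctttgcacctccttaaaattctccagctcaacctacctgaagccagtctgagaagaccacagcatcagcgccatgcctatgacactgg
Gstm1 promoter, GRCm38.p6 chr3:108017769-108018068, minus strand: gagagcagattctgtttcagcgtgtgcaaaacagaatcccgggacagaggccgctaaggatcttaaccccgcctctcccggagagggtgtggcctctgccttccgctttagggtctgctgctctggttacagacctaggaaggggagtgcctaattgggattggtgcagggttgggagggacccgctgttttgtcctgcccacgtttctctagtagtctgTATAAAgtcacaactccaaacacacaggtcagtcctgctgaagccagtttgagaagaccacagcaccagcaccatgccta
Gstp1 promoter, GRCm38.p6 chr19:4037863-4038162, minus strand: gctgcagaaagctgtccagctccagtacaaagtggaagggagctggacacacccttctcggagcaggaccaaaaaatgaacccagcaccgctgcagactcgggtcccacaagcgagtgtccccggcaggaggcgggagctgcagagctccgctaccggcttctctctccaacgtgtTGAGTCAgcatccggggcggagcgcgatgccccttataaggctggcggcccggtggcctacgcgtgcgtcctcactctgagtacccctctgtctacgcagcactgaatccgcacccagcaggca
Gstp3 promoter, GRCm38.p6 chr19:4059398-4059697, minus strand: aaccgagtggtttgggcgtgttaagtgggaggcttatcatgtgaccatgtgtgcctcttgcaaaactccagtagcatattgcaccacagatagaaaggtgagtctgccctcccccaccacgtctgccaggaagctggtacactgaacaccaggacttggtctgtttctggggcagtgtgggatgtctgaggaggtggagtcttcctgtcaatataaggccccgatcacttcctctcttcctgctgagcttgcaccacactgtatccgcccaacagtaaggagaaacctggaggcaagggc
In a global alignment the Gstm1 and Gstm3 windows were identical at 59.8% of positions and those of Gstp1 and Gstp3 at 52.3%. Windows of genes from different classes ran from 46.4% (Gstm6 and Gstt1) to 53.2% (Gsta2 and Gstm2), so the Gstp1 and Gstp3 value lies within that background. The other mu pairs were less alike than Gstm1 and Gstm3, from 46.0% (Gstm2 and Gstm6) to 52.7% (Gstm2 and Gstm3). Where a gene had several windows, only the one with the lowest coordinate was aligned. For Gstm6, on the minus strand, that is its most downstream window. The values with Gstm6, 46.0% and 46.4% among them, therefore hold for that window only, and its other starts were not compared. The window of Gstp2, the close copy of Gstp1, was identical to that of Gstp1 at 77.1%. Letter matches describe the window and are not sites shown to be used.

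The genes around the transferases went both ways. Of 18 measured genes among the other glutathione transferases and related proteins, 7 were higher and 11 lower by sign, none passed the test, and the median log2 change was -0.03. This list holds Gstm4, Gstm5, Gstm7, Gstt2 and Gstt3, given above. Among the rest, the microsomal Mgst1 read 14.54 to 14.64 on all 4 arrays (log2 change -0.02 ± 0.12, SE), and Mgst2 and Mgst3 had -0.02 and -0.28. The omega class Gsto1 had 0.48 ± 0.29 on its brighter probe set, or 0.10 to 0.87 with 1 array left out, and 0.52 ± 0.17 on the other, where the starved mice lay above the controls. The kappa class Gstk1, of mitochondria and peroxisomes, had -0.29 ± 0.21, and the zeta class Gstz1, an enzyme of tyrosine breakdown, 0.13 ± 0.12. The prostaglandin and leukotriene proteins Ptgds, Ltc4s, Ptges, Hpgds and Alox5ap lay between -0.43 and 0.08, Clic1 at -0.19 and Gdap1 at -0.04.

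Genes that make, recycle and break down glutathione had a median of -0.02 over 25 measured members, with 12 higher and 13 lower by sign and none past the test. The 4 with the smallest p were Oplah, the 5-oxoprolinase of the gamma-glutamyl cycle, at 0.52 ± 0.16 (SE), Cbs, which feeds homocysteine towards cysteine, at -0.42 ± 0.15, Chac2, a glutathione-degrading cyclotransferase, at -0.38 ± 0.16, and Gpx3, a secreted peroxidase, at 0.31 ± 0.13. Conjugate exporters had a median of 0.10 over 6 members, with none past the test. Abcc3, the basolateral exporter, read 9.97 and 8.10 in controls and 9.957 and 9.998 in starved mice, so that control 2 stood apart. Its log2 change was 0.94 ± 0.56 (SE; adjusted p = 0.593, limma), or 1.88 without control 1 and 0.005 without control 2. The canalicular Abcc2 had a log2 change of 0.22 ± 0.14 (SE), Abcc5 -0.26 and Abcc6 -0.35.

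Regulators of transferase genes had a median of 0.03 over 17 measured members, 11 higher and 6 lower by sign, and none passed the test. Nr1i3, which encodes CAR, read 9.33 and 8.52 in controls and 10.05 and 10.10 in starved mice, a log2 change of 1.15 ± 0.26 (SE; adjusted p = 0.218, limma). It was 1.56 without control 1 and 0.74 without control 2. Bach1, a repressor of NRF2 target genes, read 9.52 and 9.46 against 9.99 and 10.15, a change of 0.58 ± 0.12 (SE; adjusted p = 0.193, limma). Mafg, a partner of both NRF2 and Bach1, had 0.41 ± 0.17, and the glucocorticoid receptor Nr3c1 -0.25 ± 0.13. Nfe2l2, the gene of NRF2, chosen after its values were seen, read 9.75 to 9.96 on all arrays, with a change of -0.04 ± 0.13 (SE).

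The list of other enzymes with antioxidant response elements had a median of -0.08 over 14 members, 7 in each direction by sign and none past the test. Its membership was assumed, and whether these genes carry the element was not tested. The carboxylesterase Ces2g had -0.71 ± 0.13 (SE), the UDP-glucose dehydrogenase Ugdh -0.54 ± 0.19, the thioredoxin Txn1 -0.43 ± 0.14 and the lipase Abhd6 0.49 ± 0.16. Without control 1 the median of this list was 0.13.

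**Figure D5:**
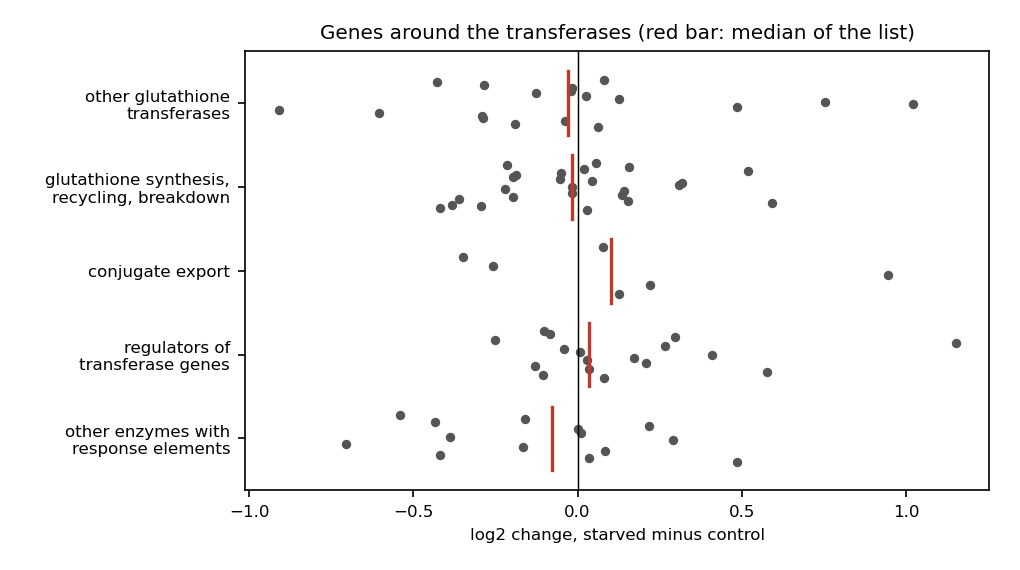
Log2 change, starved minus control (horizontal axis), of each measured gene in the 5 lists around the transferases, 1 point per gene, with the median of each list as a red bar. The medians lie between -0.08 and 0.10, and the points farthest to the right are Nr1i3 at 1.15 and Gstt2 at 1.02.

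Markers of position in the liver lobule and of sex were read beside these values. Of 11 measured pericentral markers 6 were higher and 5 lower by sign, with a median of 0.11 and array means of 10.24 to 10.47 (log2). Of 8 periportal markers 4 were higher and 4 lower, with a median of -0.11 and array means of 11.49 to 11.79. Of 9 male-biased genes 7 were lower by sign, with a median of -0.18 and array means of 11.15 and 11.33 in controls and 10.69 and 11.07 in starved mice, the same sign as the mu class. Named after their values were seen, the 3 genes with the starved mice below the controls without overlap were Hsd3b5, Slco1a1 and Cyp7b1, with log2 changes of -1.99, -0.72 and -0.42. The 2 with the starved mice above were Cyp2d9 and Cyp4a12a, with 0.44 and 0.55. Over all probe sets 20.6% lay below and 21.3% above, so these counts among 9 genes lie near the background. The 3 Y-linked genes measured, Kdm5d, Uty and Eif2s3y, overlapped between groups, as did Elovl3. Their part in the transferase values was not tested.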

How the data were processed

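Liver RNA of 4 mice was labelled with biotin and hybridised to Affymetrix arrays, per the labels' protocols. The deposited log2 values are RMA signals, which the authors computed in affy according to the submitters' processing notes. Tool versions, not given in the sources used here, are unknown, as is whether other arrays were normalized with these. RMA equalises the arrays' probe signals before they are summarised, so a shift shared by all transcripts would not show. The array medians here were 6.70 to 6.73.

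From the 22690 probe sets of the table, 64 control probe sets of Affymetrix were removed. Of the rest, 20380 had 1 gene symbol, 691 several and 1555 none in the platform annotation, and 20351 were updated by Entrez identifier through a RefSeq table of GRCm38.p6. All 22626 probe sets were fitted with lmFit and eBayes (limma 3.58.1, R 4.3.3), starved against control, two-sided, with no covariate, Benjamini-Hochberg over all of them and a threshold of 0.05. The total degrees of freedom were 5.83 and the median SE 0.133, so the small number of arrays limits precision. The labels call the samples biological replicates. Permuting 2 against 2 arrays gives p-values of at least 0.333, so no such test was run. The fit was tested on simulated data.

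The members and gene lists were chosen with earlier results of these data known, so counts over them are descriptions. Each list gene was read from its brightest probe set by the mean of the 4 arrays. Named beyond the members were the measured other transferases, the 4 genes of smallest p in each other list, and the 5 probe sets nearest to the member with the largest change. Lists of cholangiocyte (median log2 change 0.14), Kupffer (-0.11), endothelial (-0.07), stellate (-0.08), lymphocyte (0.05), neutrophil (-0.13), erythroid (0.09), hepatocyte (0.02) and female-biased liver (0.11) markers were also read, and none of their genes passed the test. The alternatives were other normalizations, a filter on dim probe sets, other units of the test, other moderation, a replicate block and each array left out.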

Additional observations from a re-analysis of the deposited data

How the results depend on the processing

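No transferase probe set passed under the median shift, the further quantile normalization, the filter removing 40% of probe sets, 1 probe set or the mean per gene, dropping _x_at and _s_at types, or trend moderation alone. The count was 2 with trend plus robust moderation, where 59 of all 22626 probe sets passed, and with robust moderation alone, where 44 did. At an adjusted p of 0.10 it was also 2, and the count over all probe sets at that level is not given here. Each time the 2 were Gstm3 and Gstm6. The trend and robust settings on their own were added after seeing the data. Leaving out 1 array leaves a lone array in its group, whose spread cannot be seen, so counts are not given for those fits. With all arrays kept, the count at an unadjusted p under 0.05 stayed between 4 and 6, out of differing totals. It was 4 of 12 without _x_at and _s_at types and 6 of 14 without dim probe sets. By gene it was 5 of 10 with 1 probe set and 6 of 10 with the mean, and otherwise 6 of 15. The share over everything tested ran from 11.2% to 14.1%. The median over the transferase probe sets stayed between -0.48 and -0.23, also with 1 array left out. With the replicate number as a block the count past the test was 0, the count at an unadjusted p under 0.05 was 6 and the smallest adjusted p was 0.146 (limma). Same-numbered arrays correlated at 0.038 in their deviations, so the numbers were not taken as pairs.

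The sign turned on leaving out 1 array, with these lowest and highest log2 changes: Gstp3 -0.62 to 4.66, Gstm1 1425626_at -0.54 to 0.066, Gstt1 -0.034 to 0.21, Mgst1 -0.073 to 0.031, Mgst2 -0.27 to 0.23, Mgst3 -0.70 to 0.13, Gstk1 -0.60 to 0.021, Alox5ap -0.099 to 0.22, Hpgds -0.12 to 0.17 and Gdap1 -0.084 to 0.0079. Mgst1 was also at 0.0087 after quantile normalization and at 0.086 with the mean per gene. The median of the other transferases ran from -0.15 to 0.016 with 1 array left out and was -0.11 without dim probe sets. That of glutathione synthesis ran from -0.080 to 0.0085, and was -0.051 without dim probe sets and 0.021 with the mean per gene. That of the enzymes listed for response elements ran from -0.22 to 0.13. The cause of these shifts was not tested.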
